A study of Mus musculus with 12 samples.

Results

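The 8 chemokine receptor genes Ccr1, Ccr2, Ccr7, Cxcr4, Cxcr6, Ackr1, Ackr2 and Ccrl2 were followed in the lungs of newborn mice. They were taken by gene symbol from a bulk RNA sequencing count table of 52550 genes, and all 8 were found and passed the filter on low counts. The study compared 4 groups of 3 mice on the C57Bl/6J strain, with 1 library per mouse. Adm+/+ mice formed the groups WT PBS (replicates 3, 4 and 5) and WT LPS (replicates 9, 10 and 11). The groups Adm+/- PBS, with replicates 6, 7 and 8, and Adm+/- LPS, with replicates 1, 2 and 12, were mice with a single functional copy of Adm, the adrenomedullin gene, in every cell. LPS, an endotoxin of Escherichia coli O55:B5, was injected into the peritoneum at 6 mg/kg on each of postnatal days 3, 4 and 5, the controls received an equal volume of PBS on the same days, and whole lungs were taken on day 5, 6 h after the last of 3 doses.

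Chemokines are small secreted proteins that guide the movement of leukocytes. Conventional chemokine receptors, here Ccr1, Ccr2, Ccr7, Cxcr4 and Cxcr6, couple to inhibitory G proteins and make a cell migrate towards the ligand. Atypical receptors do not signal through G proteins: Ackr1 on red cells and venules and Ackr2 on lymphatic endothelium bind or take up inflammatory chemokines, and Ccrl2 binds chemerin and presents it to cells that carry Cmklr1. In whole lung RNA, fewer cells of a type and less RNA per cell cannot be told apart.

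The libraries held 22382535 to 38062873 counts. WT PBS replicate 5 and Adm+/- PBS replicate 6 stood apart, since protein-coding genes took 77.8% and 80.1% of their counts and 84.3% to 87.6% elsewhere. The gene Gm26917 alone took 16.6% and 13.3% of their counts and 5.42% to 7.4% elsewhere. Adm itself was at 3.96, 7.09 and 4.57 CPM (counts scaled to a library of 1000000) in WT PBS, 7.77, 8.15 and 4.46 in WT LPS, 4.58, 2.87 and 3.62 in Adm+/- PBS, and 3.74, 6.28 and 3.92 in Adm+/- LPS, so the genotypes overlapped at this gene. The tissue label fitted the lung epithelium markers, led by Sftpc and Scgb1a1, which summed to 13000 to 16900 CPM over all libraries. Skeletal muscle markers summed to 701 to 1880 CPM in WT LPS and to at most 54.5 CPM in the other groups.

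Endotoxin raised Ccr1 and Ackr1 in both genotypes. Ccr1, a receptor of neutrophils, monocytes and macrophages, rose 4.27-fold in WT and 7.16-fold in Adm+/- mice, and Ackr1 rose 14.4-fold and 45.6-fold. Each PBS library held at most 8 counts of Ackr1, which passed the filter on low counts through its LPS libraries. Cxcr6, a receptor of T cells and innate lymphocytes, passed the test in WT mice with a 1.72-fold rise, and Ccrl2 passed it in Adm+/- mice with a 1.65-fold rise. Ccr2, Ccr7, Cxcr4 and Ackr2 did not pass in either genotype. A call required an adjusted p below 0.05 in edgeR's quasi-likelihood test and an absolute log2 fold change above 0.5. Called members numbered 3 of 8 in WT mice, where 17.6% of all 15885 tested genes were called (10.5% as higher), and 3 of 8 in Adm+/- mice, where 25% were called (12.8% as higher). All of these calls were rises. With treat in limma-voom, which tests for a log2 fold change beyond 0.5 and called 542 genes in WT and 1139 in Adm+/- mice, Ccr1 was called in both genotypes and Ackr1 in Adm+/- mice. The calls of Ackr1 (log2 fold change 3.99, adjusted p = 0.0933) and Cxcr6 (0.77, adjusted p = 0.891) in WT and of Ccrl2 (0.71, adjusted p = 0.826) in Adm+/- mice were lost under it. The median log2 fold change of the members was 0.20 in WT and 0.38 in Adm+/- mice, against 0.01 and -0.01 over all tested genes.

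**Figure D1:**
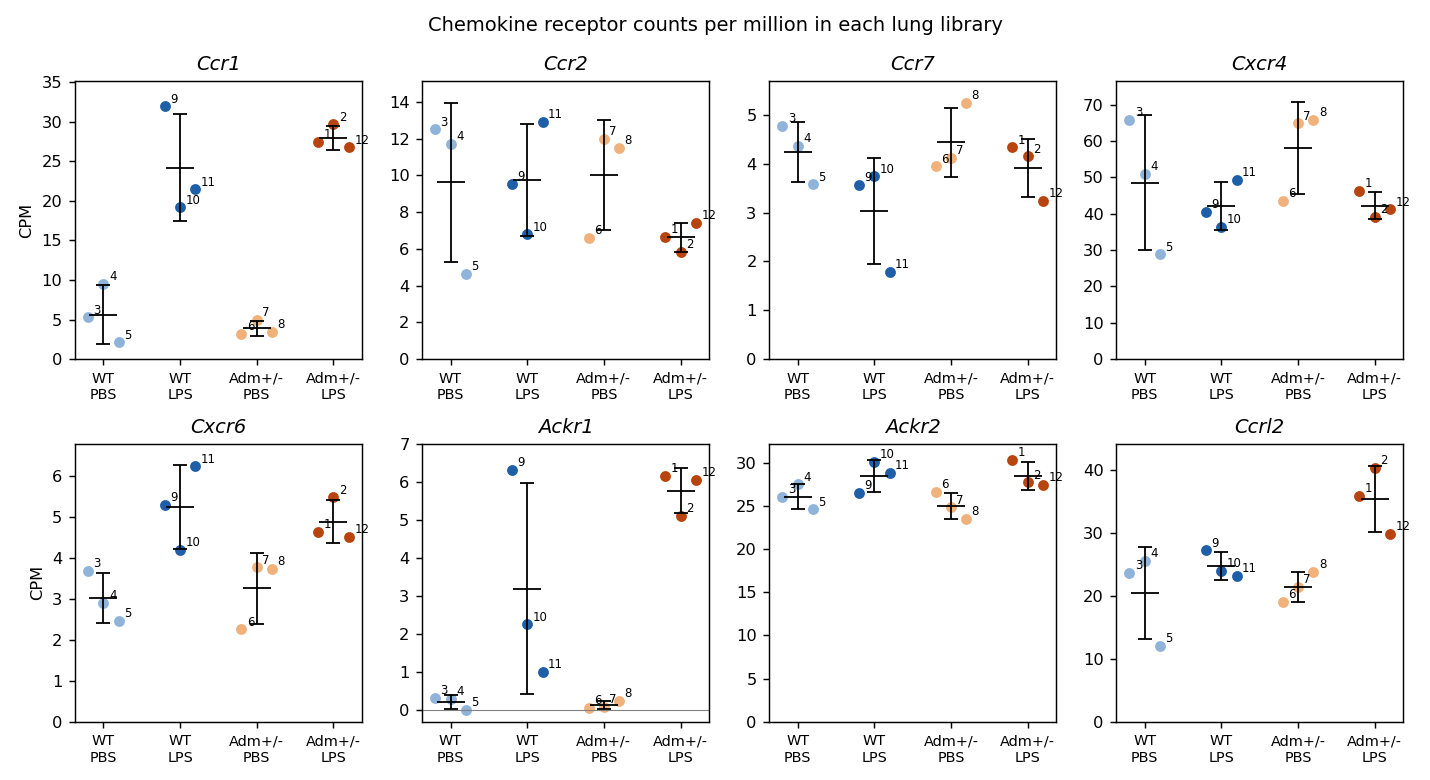
CPM (y axis) of the 8 receptors in each of the 12 libraries, with the replicate number beside each point and the group mean ± SD (n = 3) in black. Ccr1 and Ackr1 lay higher in all 6 LPS libraries than in any PBS library, and Ccrl2 lay at 29.8 to 40.3 CPM in Adm+/- LPS, above every other library.

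The receptors of inflammatory myeloid cells are described first. Ccr1 was at 5.28, 9.51 and 2.1 CPM in WT PBS and at 32, 19.2 and 21.5 CPM in WT LPS. In Adm+/- mice it was at 3.21, 4.97 and 3.46 CPM with PBS and at 27.5, 29.7 and 26.8 CPM with LPS. The LPS and PBS libraries did not overlap in either genotype. The log2 fold change of Ccr1 was 2.09 ± 0.40 (SE, adjusted p = 0.00449) in WT and 2.84 ± 0.41 (adjusted p = 0.000478) in Adm+/- mice. Its difference between the genotypes was 0.75 on the log2 scale, with a 95% interval of -0.46 to 1.95 and an adjusted p of 0.881. The highest PBS library was WT PBS replicate 4, and without it the WT log2 fold change was 2.68.

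Ccr1 rose beside markers of the cells that carry it. The neutrophil markers, led by S100a9 and S100a8, summed to 57.8 to 180 CPM in WT PBS, 1710 to 3000 in WT LPS, 39.6 to 67.2 in Adm+/- PBS and 1620 to 1940 in Adm+/- LPS, and none of the 12 was at 0 throughout a group. Of the 11 neutrophil markers tested, 10 were called higher in WT and 11 in Adm+/- mice. WT PBS replicate 4, the PBS library with the most Ccr1, was also the one at 180 CPM of neutrophil markers, and WT LPS replicate 9, with the most Ccr1 of all, was the one at 3000 CPM. Other libraries were not in the same order: WT PBS replicate 5 had the least Ccr1 at 60.8 CPM of these markers, against 57.8 in WT PBS replicate 3, and Adm+/- LPS replicate 1 had more Ccr1 (27.5 CPM, markers 1620) than WT LPS replicate 10 (19.2 CPM, markers 1710). Monocyte markers, led by Hp and Plac8, summed to 372 to 498, 887 to 1540, 326 to 427 and 1470 to 1810 CPM in the same order of groups, with 8 and 6 of 10 called higher. Macrophage markers, led by Lyz2 and C1qb, summed to 1000 to 1270, 1700 to 2340, 1000 to 1200 and 1690 to 2240 CPM, with 10 and 9 of 12 called higher. Of all genes, 10.5% in WT and 12.8% in Adm+/- mice were called higher. The part of these cells in the rise of Ccr1 was not tested.

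Ccr2, the receptor through which Ccl2 draws monocytes out of the bone marrow, did not rise with those markers. It was at 12.5, 11.7 and 4.63 CPM in WT PBS and at 9.52, 6.78 and 12.9 CPM in WT LPS. In Adm+/- mice the values were 6.58, 12.0 and 11.5 CPM with PBS and 6.66, 5.82 and 7.41 CPM with LPS. All 4 groups overlapped. The log2 fold change of Ccr2 was 0.00 (SE 0.35, 95% interval -0.77 to 0.78) in WT and -0.60 (SE 0.36, 95% interval -1.38 to 0.18, adjusted p = 0.229) in Adm+/- mice. Leaving out 1 library moved the WT value between -0.32 (without WT PBS replicate 5) and 0.24 (without WT PBS replicate 3). The lowest PBS values came from WT PBS replicate 5 and Adm+/- PBS replicate 6, the libraries that stood apart. Without both of them the log2 fold change was -0.32 (adjusted p = 0.333) in WT and -0.82 (adjusted p = 0.02) in Adm+/- mice, which passed the threshold as a fall.

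**Figure D2:**
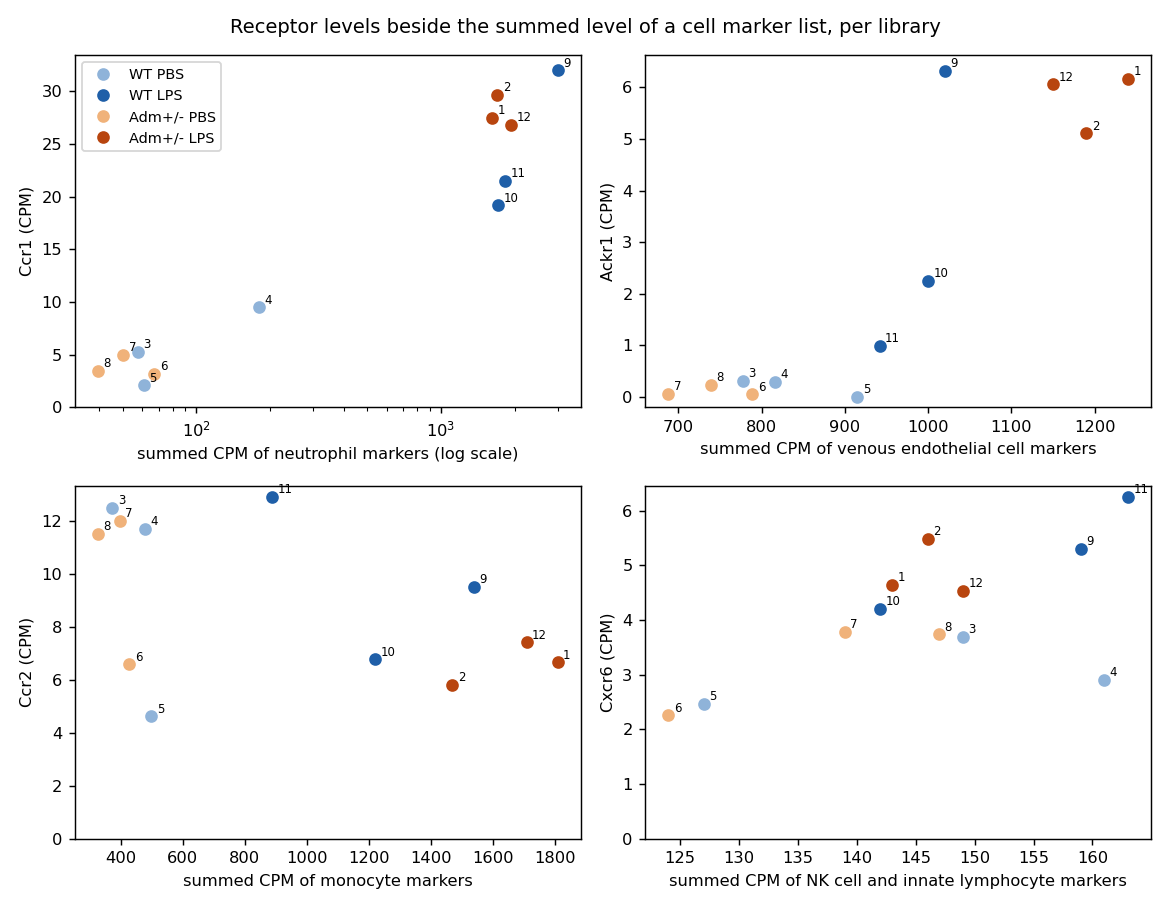
Each panel sets the CPM of a receptor (y axis) against the summed CPM of a cell marker list (x axis, logarithmic in the Ccr1 panel) in the 12 libraries, with replicate numbers beside the points. Ccr1 and the neutrophil markers were both highest in WT LPS replicate 9, whereas Ccr2 was at 5.82 to 7.41 CPM in the Adm+/- LPS libraries, where monocyte markers summed to 1470 to 1810 CPM.

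Ccr7 and Cxcr4, which steer cells by constitutive chemokines, were not called. Ccr7, which takes dendritic cells and naive T cells to lymph nodes, was at 4.78, 4.37 and 3.58 CPM in WT PBS, 3.57, 3.74 and 1.79 in WT LPS, 3.95, 4.12 and 5.25 in Adm+/- PBS, and 4.34, 4.15 and 3.24 in Adm+/- LPS. LPS and PBS overlapped in each genotype, and WT LPS replicate 11 was the lowest library. Its log2 fold change was -0.48 ± 0.27 (SE, 95% interval -1.06 to 0.10, adjusted p = 0.208) in WT and -0.19 ± 0.26 (95% interval -0.76 to 0.39, adjusted p = 0.629) in Adm+/- mice. T cell markers, led by Thy1 and Cd2, summed to 31.2 to 37.9 CPM in WT PBS, 29.1 to 29.8 in WT LPS, 30.3 to 33.5 in Adm+/- PBS and 25.3 to 28.5 in Adm+/- LPS. Of the 13 T cell markers, 0 were called in WT mice (smallest adjusted p = 0.0698, 1 with an unadjusted p below 0.05), and 3 were called lower in Adm+/- mice. Of the 10 dendritic cell markers tested, led by Fscn1 and Clec9a, 1 was called lower in WT mice, and 1 was called higher and 1 lower in Adm+/- mice. The shares called over all genes were 17.6% and 25%.

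Cxcr4, the receptor of Cxcl12 on most leukocytes and on developing vessels, was at 65.8, 51.0 and 28.8 CPM in WT PBS and at 40.5, 36.3 and 49.3 CPM in WT LPS. Adm+/- mice had 43.5, 64.9 and 65.9 CPM with PBS and 46.3, 39.1 and 41.2 CPM with LPS. The LPS libraries overlapped the PBS libraries in both genotypes, and the lowest PBS libraries were again WT PBS replicate 5 and Adm+/- PBS replicate 6. Its log2 fold change was -0.21 ± 0.26 (SE, adjusted p = 0.577) in WT and -0.46 ± 0.26 (adjusted p = 0.195) in Adm+/- mice. Without those 2 libraries Cxcr4 had a log2 fold change of -0.48 (adjusted p = 0.045) in WT, short of the fold threshold, and of -0.63 (adjusted p = 0.00914) in Adm+/- mice, which passed as a fall. Whether the makeup of these libraries set the Cxcr4 and Ccr2 results was not tested.

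Cxcr6 was higher with LPS in both genotypes, by a small margin. It was at 3.69, 2.91 and 2.47 CPM in WT PBS and at 5.30, 4.20 and 6.25 CPM in WT LPS, and at 2.26, 3.78 and 3.74 CPM in Adm+/- PBS and 4.64, 5.49 and 4.53 CPM in Adm+/- LPS. Every LPS library lay above every PBS library. The log2 fold change of 0.79 ± 0.24 (SE, adjusted p = 0.0381) passed in WT mice, and that of 0.57 ± 0.24 (adjusted p = 0.0887) in Adm+/- mice did not. The difference between the responses was -0.22 (95% interval -0.95 to 0.52, adjusted p = 0.995). Averaged over both genotypes, a contrast added after the values were seen in which 3 members and 28% of all genes were called, Cxcr6 rose by 0.68 ± 0.17 (SE, adjusted p = 0.00705). In 7 of 12 fits with 1 library left out the WT call did not hold (adjusted p up to 0.112), namely without WT PBS replicate 4 or 5, WT LPS replicate 9 or 11, Adm+/- PBS replicate 8, or Adm+/- LPS replicate 1 or 12. It was also lost in a fit of the 6 WT libraries alone (0.79, adjusted p = 0.11). Natural killer and innate lymphocyte markers, led by Il18r1 and Rora, summed to 124 to 163 CPM over all libraries, with 2 of 9 tested called higher in WT and 3 higher and 1 lower in Adm+/- mice. Over all genes, 17.6% and 25% were called in either direction. The part of these cells in the Cxcr6 result was not tested.

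The atypical receptors went apart from each other. Ackr1, the Duffy antigen receptor that carries chemokines across venular endothelium, had 8, 6 and 0 counts in WT PBS, 205, 54 and 25 in WT LPS, 1, 2 and 6 in Adm+/- PBS, and 165, 122 and 170 in Adm+/- LPS. In CPM these were 0.311, 0.291 and 0, then 6.32, 2.25 and 0.996, then 0.0526, 0.0676 and 0.239, and then 6.17, 5.11 and 6.06. The LPS libraries lay above all PBS libraries, and WT LPS spread widely while Adm+/- LPS did not. The log2 fold change of Ackr1 was 3.85 ± 0.77 (SE, adjusted p = 0.00564) in WT and 5.51 ± 0.81 (adjusted p = 0.000535) in Adm+/- mice. Both rest on few PBS counts, and Ackr1 passed the filter on low counts through its LPS libraries. Without WT LPS replicate 9 the WT log2 fold change was 2.86 (adjusted p = 0.019), and without Adm+/- PBS replicate 8 the Adm+/- value was 6.44. The difference between the responses was 1.66, with a 95% interval of -1.08 to 4.39 and an adjusted p of 0.891.

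Markers of the cells that carry Ackr1 differed in how many were called. Venous endothelial markers, led per length by Lrg1 and Vwf, summed to 778 to 915 CPM in WT PBS, 942 to 1020 in WT LPS, 688 to 789 in Adm+/- PBS and 1150 to 1240 in Adm+/- LPS. In WT mice 5 of 8 were called higher and in Adm+/- mice 6 of 8. The log2 rise of Lrg1 was 2.65 ± 0.54 (SE, adjusted p = 0.00653) in WT and 4.55 ± 0.60 (adjusted p = 0.000278) in Adm+/- mice, while Vwf was at 471 to 658, 505 to 547, 381 to 499 and 488 to 603 CPM and was not called. Pan-endothelial markers, led by Cldn5 and Cdh5, had 2 of 8 called lower and 0 called higher in each genotype. Of all genes, 17.6% in WT and 25% in Adm+/- mice were called in either direction. Of the 9 erythroid markers tested, led by Hbb-bs and Hba-a1, 0 were called in either genotype (smallest adjusted p = 0.219 and 0.0545), and they summed to 705 to 3850 CPM over all libraries. The part of any of these cells in the rise of Ackr1 was not tested.

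Ackr1 also shares 361 exon bases with Cadm3 on the same strand, and 20.4% of the 50-base words of its transcripts occur in Cadm3 transcripts, so its counts are uncertain by the reads that lie there. Cadm3 was at 2.56, 1.80 and 1.61 CPM in WT PBS, 4.19, 4.16 and 3.82 in WT LPS, 2.37, 2.09 and 2.27 in Adm+/- PBS, and 2.43, 2.39 and 2.28 in Adm+/- LPS. In WT mice the LPS libraries of Cadm3 lay above its PBS libraries, as those of Ackr1 did, and in Adm+/- mice they overlapped while those of Ackr1 did not. The part of shared reads in the rise of Ackr1 was not tested. Of the other members, only Ccr2 shared such words with another gene, for 1.91% of its words.

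Ackr2, which degrades inflammatory CC chemokines, was the steadiest member. It was at 26.0, 27.5 and 24.6 CPM in WT PBS, 26.5, 30.1 and 28.8 in WT LPS, 26.6, 24.8 and 23.5 in Adm+/- PBS, and 30.3, 27.7 and 27.4 in Adm+/- LPS. LPS and PBS overlapped in WT and not in Adm+/- mice. The log2 fold change was 0.13 ± 0.10 (SE, 95% interval -0.09 to 0.35) in WT and 0.19 ± 0.10 (95% interval -0.03 to 0.41, adjusted p = 0.172) in Adm+/- mice, so a doubling lay outside both intervals.

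Ccrl2 was raised in Adm+/- LPS. It was at 23.6, 25.5 and 12.0 CPM in WT PBS, 27.2, 23.9 and 23.1 in WT LPS, 19.0, 21.4 and 23.8 in Adm+/- PBS, and 35.8, 40.3 and 29.8 in Adm+/- LPS. The Adm+/- LPS libraries lay above all 9 others, while WT LPS overlapped both PBS groups. The share of all genes with this pattern was not counted. The log2 fold change was 0.27 ± 0.23 (SE, adjusted p = 0.412) in WT and 0.72 ± 0.23 (adjusted p = 0.0348) in Adm+/- mice. The difference between its responses was not called, and lay between 0.25 and 0.72 when 1 library was left out. Averaged over both genotypes, Ccrl2 was not called by edgeR with all libraries. It was called there by DESeq2 (adjusted p = 0.00905), by limma-voom (adjusted p = 0.0221) and in 6 of 12 fits with 1 library left out. In 5 of 12 fits with 1 library left out the Adm+/- call did not hold (adjusted p up to 0.119), namely without any of the 3 Adm+/- PBS libraries or without Adm+/- LPS replicate 1 or 2. WT PBS replicate 5 was the lowest library, and without it and Adm+/- PBS replicate 6 the log2 fold change was 0.01 in WT and 0.64 (adjusted p = 0.00556) in Adm+/- mice.

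**Figure D3:**
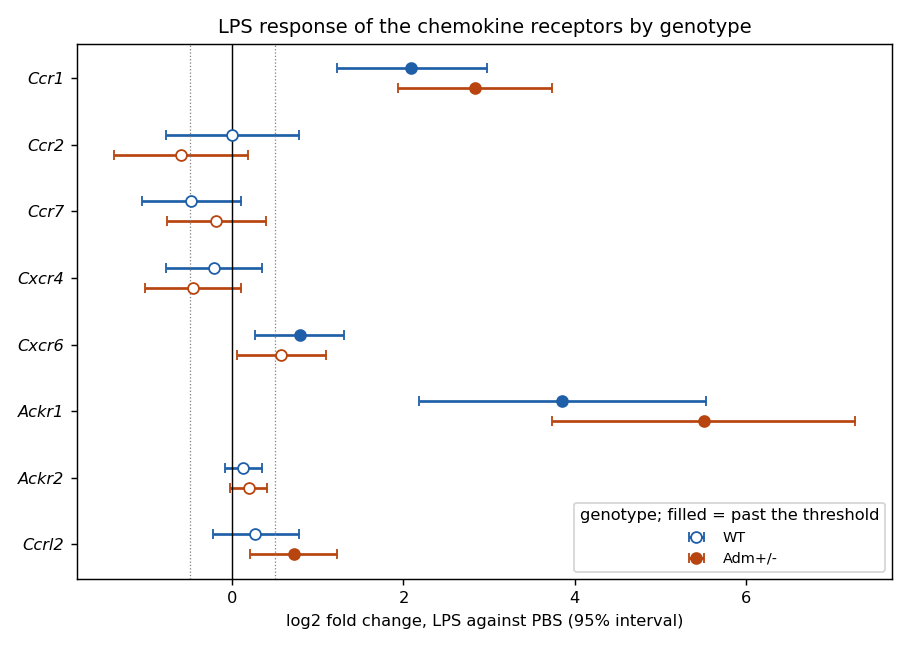
Log2 fold change of LPS against PBS (x axis) for each receptor in WT (blue) and Adm+/- mice (orange), with 95% intervals from edgeR. Filled points passed the threshold, and dotted lines mark the fold threshold of 0.5. Ccr1 and Ackr1 were filled in both genotypes, Cxcr6 in WT and Ccrl2 in Adm+/- mice, and the intervals of the genotypes overlapped for every receptor.

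Whether the genotypes differed was asked of the same fit. The difference between the LPS responses was called for 0 of the 8 receptors, where 0.145% of all tested genes were called. Among these genes were 5 of the 8 skeletal muscle markers tested, with the lower LPS response in Adm+/- mice. No member had an unadjusted p below 0.05 in that contrast, against 1247 of all genes, and the adjusted p of the members lay between 0.876 and 0.996. DESeq2 and limma-voom also called 0. Among PBS mice 0 of 8 receptors and 0% of all genes were called, with 0 members and 344 genes at an unadjusted p below 0.05. Among LPS mice 0 of 8 were called, against 2.05% of all genes. Ccrl2 came nearest there, with a log2 difference of 0.51 ± 0.23 (SE, 95% interval 0.01 to 1.01) between Adm+/- and WT, an unadjusted p of 0.0464 and an adjusted p of 0.337. Without WT PBS replicate 5 and Adm+/- PBS replicate 6, neither of them an LPS library, the Ccrl2 difference was 0.52 (adjusted p = 0.042) and was called. That fit called 548 of 16100 genes in this contrast, against 325 of 15885 with all libraries. The cause of the change was not tested. Ccrl2 was the single receptor whose LPS libraries did not overlap between genotypes, a pattern that 24.6% of all genes had in either direction and 12.2% as higher in Adm+/- mice. Between LPS and PBS, libraries did not overlap for 3 of 8 receptors in WT mice (36.2% of all genes, 18.3% as higher with LPS) and for 5 of 8 in Adm+/- mice (53.7%, 26.6% as higher), each of them higher with LPS.

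Per kilobase of exon, which allows levels to be compared between genes, Cxcr4 was the most abundant receptor with 26.4 CPM per kb over all libraries, and it led in each group. Ccrl2 followed with 9.79, Ackr2 with 8.63 and Ccr1 with 5.45 CPM per kb. Cxcr6 stood at 2.13, Ccr7 at 1.98, Ackr1 at 1.65 and Ccr2 at 1.33 CPM per kb. The order below Cxcr4 differed between groups. In WT PBS Ackr2 had a mean of 8.32 CPM per kb and Ccrl2 of 7.85. In Adm+/- PBS Ccr1, at 1.37 CPM per kb, lay below Ccr7 (2.24), Cxcr6 (1.69) and Ccr2 (1.48). Ackr1 was the lowest in both PBS groups, at 0.143 and 0.0851 CPM per kb, and lay above Cxcr6 in Adm+/- LPS, at 4.11 against 2.53 CPM per kb. The summed level of the 8 was 50.3 ± 15.3 (SD, n = 3) CPM per kb in WT PBS, 58.4 ± 5.53 in WT LPS, 55.2 ± 8.72 in Adm+/- PBS and 65.5 ± 3.45 in Adm+/- LPS. Cxcr4 made up 52.5% ± 5.42 (SD) of that sum in WT PBS and 39.8% ± 5.25 in WT LPS, and 57.8% ± 3.95 and 35.6% ± 2.46 in Adm+/- mice. The share of Ccr1 went from 3.75% to 14.5% in WT and from 2.48% to 15.1% in Adm+/- mice. The atypical receptors Ackr1, Ackr2 and Ccrl2 together held 33.3% ± 4.77, 35.9% ± 3.93, 30.0% ± 4.45 and 40.9% ± 1.46 in the 4 groups in that order. These shares were not tested.

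Other chemokine receptors were counted in the same fit. Of 16 others listed from the mouse family, 11 passed the filter, and Ccr1l1, Ccr3, Ccr4, Ccr8 and Xcr1 did not. In WT mice 2 were called higher and 1 lower, and in Adm+/- mice 2 higher and 2 lower, where 17.6% and 25% of all genes were called in either direction. Cxcr2, which brings neutrophils into tissue, rose by 2.53 (adjusted p = 0.0121) and 3.83 (adjusted p = 0.0012) on the log2 scale in WT and Adm+/- mice, and its highest PBS value of 8.93 CPM was also in WT PBS replicate 4. Ackr3, an atypical receptor that takes up Cxcl12, was at 29.2 to 36.2 CPM in WT PBS, 49.3 to 66.3 in WT LPS, 28.3 to 38 in Adm+/- PBS and 82.4 to 113 in Adm+/- LPS. It rose by 0.82 (adjusted p = 0.00707) and 1.43 (adjusted p = 0.000172), and the genotypes differed by 0.65 in LPS with an adjusted p of 0.0742, which did not pass. Ccr10, a receptor of skin-homing T cells and plasma cells, fell by 1.43 (adjusted p = 0.0418) and by 2.19 (adjusted p = 0.0056).

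Cx3cr1, the fractalkine receptor of patrolling monocytes, fell in Adm+/- mice from 14.8 to 15.9 CPM with PBS to 3.18 to 3.92 CPM with LPS, by 2.15 on the log2 scale (adjusted p = 0.0314). The WT value on that scale was 0.08 (adjusted p = 0.936), where WT LPS held 5.86, 3.49 and 37.7 CPM against 13.3 to 16.1 CPM in WT PBS. Replicate 11 was the high library. Cmklr1, the signalling chemerin receptor served by Ccrl2, had a log2 fold change of 0.30 (adjusted p = 0.0799) in WT and of 0.43 (adjusted p = 0.0157) in Adm+/- mice, short of the fold threshold. No receptor of this list was called by edgeR in the difference between the responses or between the genotypes in LPS, where 2 had an unadjusted p below 0.05 in each. Between the genotypes in LPS, DESeq2 called 2, and edgeR called 1 without WT PBS replicate 5 or without WT LPS replicate 10. Over all genes these fits called 803, 573 and 550, against 325 with edgeR on all libraries.

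**Figure D4:**
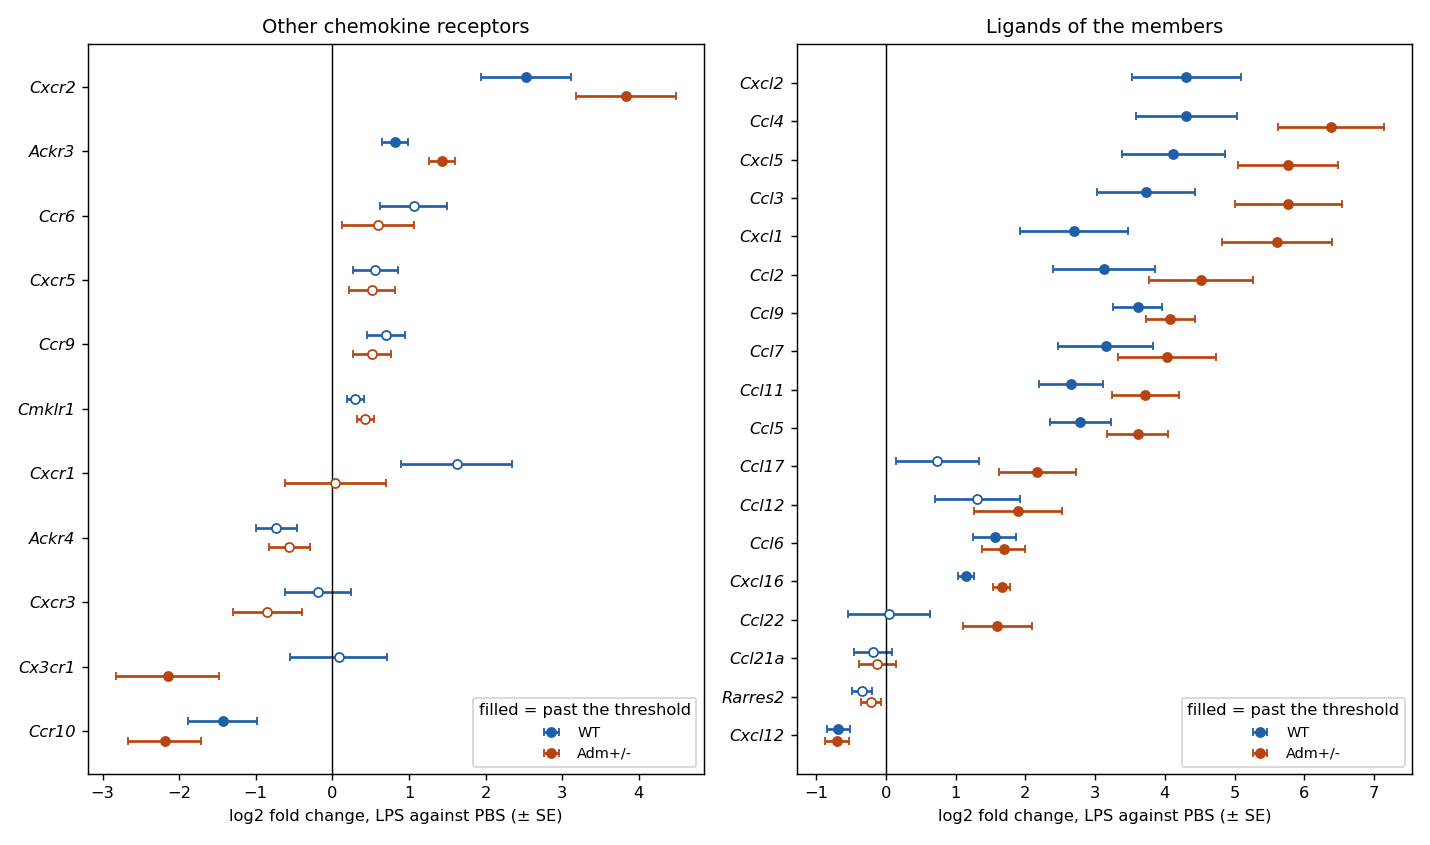
Log2 fold change of LPS against PBS with its SE (x axis) for 11 other chemokine receptors (left) and for the ligands of the 8 receptors (right), in WT (blue) and Adm+/- mice (orange), filled where past the threshold. The Adm+/- point of Cxcl2 is left out because its PBS libraries held at most 1 count. In both genotypes the filled ligand points lay to the right of 0 with the exception of Cxcl12.

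More ligands than receptors were called. Of 20 ligands, 18 passed the filter, and of these 12 were called higher and 1 lower in WT mice and 15 higher and 1 lower in Adm+/- mice (17.6% and 25% of all genes), with medians of 2.68 and 3.67 on the log2 scale. The ligand and receptor lists were not tested against each other, and the ligands ranged from -0.68 to 4.31 in WT mice, where Ackr1 had 3.85. Among ligands of Ccr1, the log2 fold change in WT and then Adm+/- mice was 3.73 and 5.77 for Ccl3, 2.79 and 3.61 for Ccl5, 1.56 and 1.69 for Ccl6, 3.15 and 4.03 for Ccl7, and 3.61 and 4.08 for Ccl9, all of them called. Ccr1 and these 5 ligands therefore all rose in both genotypes. Among ligands of Ccr2, Ccl2 rose by 3.13 (adjusted p = 0.0116) and 4.52 (adjusted p = 0.00106) and Ccl7 as above, while Ccl12 had 1.31 (adjusted p = 0.143) in WT and rose by 1.90 (adjusted p = 0.0383) in Adm+/- mice. Ccr2 itself was not called.

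Cxcl12, the ligand of Cxcr4, was the ligand that fell, by 0.68 (adjusted p = 0.0177) in WT and by 0.70 (adjusted p = 0.01) in Adm+/- mice, from 245 to 277 CPM in the PBS libraries to 137 to 210 CPM in the LPS libraries. Cxcl16, the ligand of Cxcr6, rose by 1.15 (adjusted p = 0.000161) and 1.66 (adjusted p = 4.02e-05). Of the ligands of Ccr7, Ccl21a had log2 fold changes of -0.18 and -0.12 and was not called. Ccl19 did not pass the filter and was not tested, with 0, 0 and 2 counts in WT PBS, 5, 5 and 3 in WT LPS, 0, 1 and 0 in Adm+/- PBS, and 10, 9 and 14 in Adm+/- LPS, or 0.499 CPM at most. In CPM the LPS and PBS libraries did not overlap in Adm+/- mice, and in WT mice WT LPS replicate 11 (0.119 CPM) lay below WT PBS replicate 5 (0.124 CPM). Rarres2, which encodes chemerin, the ligand of Ccrl2, had -0.34 (adjusted p = 0.102) and -0.21 (adjusted p = 0.288).

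Ligands bound by the atypical receptors included the largest rises of the list. Of those that Ackr1 binds beside Ccl2 and Ccl5, Cxcl1 rose by 2.70 (adjusted p = 0.0287) and 5.61 (adjusted p = 0.000414) and Cxcl5 by 4.12 and 5.77 on the log2 scale. Cxcl2 had 5, 19 and 1 counts in WT PBS and 501, 152 and 55 in WT LPS, a log2 rise of 4.31 (adjusted p = 0.0035). In Adm+/- mice it had 1, 0 and 0 counts with PBS and 947, 1136 and 850 with LPS. Of those that Ackr2 scavenges, Ccl4 rose by 4.31 and 6.39 and Ccl11 by 2.65 and 3.72, whereas Ccl17 had 0.74 (adjusted p = 0.385) and 2.17 (adjusted p = 0.0113) and Ccl22 had 0.05 (adjusted p = 0.956) and 1.6 (adjusted p = 0.0294), each called in Adm+/- mice. Between the genotypes in LPS, Ccl22 was the single ligand called, 2.49 ± 0.52 (SE, adjusted p = 0.0345) higher in Adm+/- mice. No ligand was called there under treat, in the fit of the LPS libraries alone, or without WT LPS replicate 11, Adm+/- PBS replicate 7 or any 1 of the Adm+/- LPS libraries, so the Ccl22 call was lost in these. DESeq2 and limma-voom called 3 ligands each. Of all genes, treat called 79 in this contrast and the fit of the LPS libraries alone 245. DESeq2 called 803 and limma-voom 285, against 325 with edgeR on all libraries. No ligand was called by edgeR in the difference between the responses, where 3 had an unadjusted p below 0.05 and DESeq2 called 1. DESeq2 called 168 of all genes in that contrast, against 23 with edgeR.

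Signalling genes below the receptors were counted in the same way. Of 26 genes of G proteins, receptor kinases, arrestins, Rgs proteins and migration effectors, 24 were tested, and 6 were called higher and 1 lower in each genotype, where 17.6% of all genes were called in WT and 25% in Adm+/- mice. Pik3r5, a regulatory subunit of the phosphoinositide kinase that G proteins activate, rose by 2.29 (adjusted p = 7.48e-05) in WT and 3.19 (adjusted p = 2.47e-05) in Adm+/- mice. Rac2, the Rac GTPase of blood cells, rose by 2.09 (adjusted p = 0.000129) and 2.20 (adjusted p = 6.72e-05). Rgs16, which shuts off G protein signals, had 0.10 (adjusted p = 0.683) in WT and rose by 1.32 (adjusted p = 0.000172) in Adm+/- mice, and it was 1.10 ± 0.16 (SE, adjusted p = 0.00417) higher in Adm+/- than in WT mice after LPS. Its responses differed by 1.22 between the genotypes with an adjusted p of 0.0792, the smallest of the list, so edgeR called 0 of the 24 in that contrast, where 2 had an unadjusted p below 0.05. Grk3, a kinase that desensitizes receptors, had 0.35 (adjusted p = 0.0163), short of the fold threshold, and 0.61 (adjusted p = 0.000475).

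The genes lie together to a large degree. In Gencode M21 on mm10, 5 of the 8 receptors and 14 of the 24 listed receptors are on chromosome 9, and 7 of these, Ccr2 included, start within 500 kb of Ccr2. Ccr1 spans chr9:123962124-123968692 on the minus strand, Ccr2 chr9:124101950-124113557 on the plus strand and Cxcr6 chr9:123806475-123811760 on the plus strand. Ackr2 (chr9:121898355-121911074, plus) and Ccrl2 (chr9:111054486-111057519, minus) lie farther off. Ccr7 is at chr11:99144196-99155077, Cxcr4 at chr1:128588199-128592293 and Ackr1 at chr1:173331886-173333750, all on the minus strand. Neighbours went different ways: Ccr2 was not called, while Ccr1, which starts 133.3 kb upstream, rose in both genotypes.

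**Figure D5:**
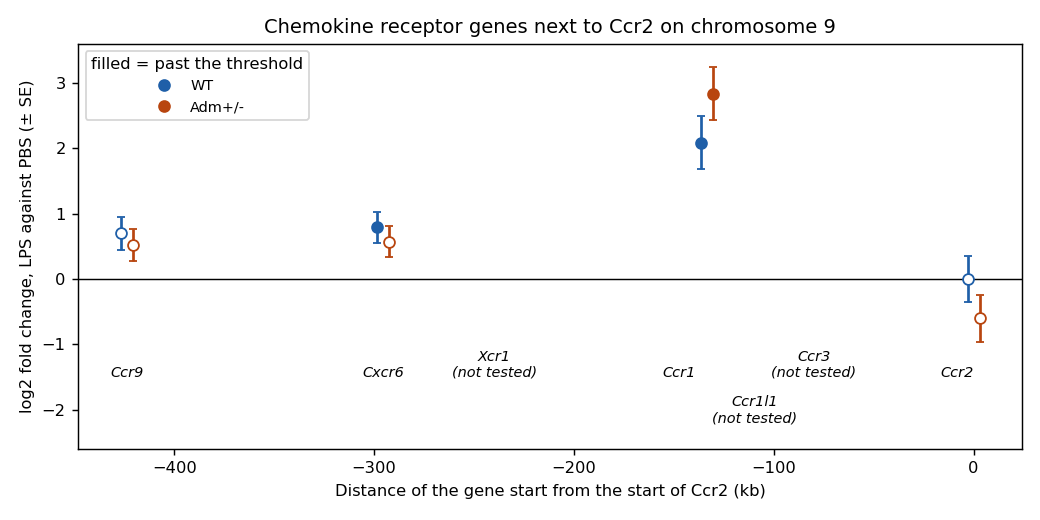
Log2 fold change of LPS against PBS with its SE (y axis) for listed receptor genes that start within 500 kb of Ccr2, by the distance of their start from that of Ccr2 in kb (x axis), in WT (blue) and Adm+/- mice (orange), filled where past the threshold. Ccr1 was filled in both genotypes, Cxcr6 in WT mice and Ccr2 in neither.

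Promoter sequences of 3 receptors are shown because their responses differ: Ccr1 rose in both genotypes, Ccrl2 was called in Adm+/- mice and Ackr2 in neither. Each is the 250 bases before a RefSeq start site in GRCm38.p6, read 5′ to 3′ on the strand of the gene, with matches to the kappa B consensus in capitals. Ccr1 is chr9:123968693-123968942 (minus), Ackr2 chr9:121898105-121898354 (plus) and Ccrl2 chr9:111057519-111057768 (minus).
Ccr1: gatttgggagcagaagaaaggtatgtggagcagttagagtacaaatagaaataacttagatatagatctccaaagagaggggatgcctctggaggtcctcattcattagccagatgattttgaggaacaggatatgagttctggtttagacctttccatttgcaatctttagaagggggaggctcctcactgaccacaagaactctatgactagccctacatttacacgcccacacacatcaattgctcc
Ackr2: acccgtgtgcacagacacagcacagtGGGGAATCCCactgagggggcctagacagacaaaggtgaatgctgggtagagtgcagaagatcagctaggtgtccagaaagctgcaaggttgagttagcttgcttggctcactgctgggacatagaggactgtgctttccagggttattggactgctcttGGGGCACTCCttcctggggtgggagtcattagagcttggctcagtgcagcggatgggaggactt
Ccrl2: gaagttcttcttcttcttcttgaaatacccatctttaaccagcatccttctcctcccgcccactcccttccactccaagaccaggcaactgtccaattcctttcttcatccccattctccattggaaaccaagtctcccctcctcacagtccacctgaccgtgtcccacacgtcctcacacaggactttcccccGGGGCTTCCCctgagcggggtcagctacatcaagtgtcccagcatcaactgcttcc

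Motifs were searched on both strands in the windows of the 7 receptors in the promoter set used here, which did not include Ccr7. The kappa B consensus, the site of Rel proteins, is in 3.9% of all 32817 promoter windows of this length. Ackr2 held it at 224 and 64 bases before the start site (GGGGAATCCC and GGGGCACTCC) and Ccrl2 at 56 bases (GGGGCTTCCC). The windows of Ccr1, Ccr2, Cxcr4, Cxcr6 and Ackr1 did not hold it. RefSeq gives Ccrl2 3 start sites, and the windows of its other start sites, chr9:111057271-111057520 and chr9:111057245-111057494, did not hold the consensus. No window of the 7 held AP-1 (TGANTCA, in 6.75% of all windows), STAT (TTCNNNGAA, 7.01%), ISRE (2.97%) or PU.1 (GAGGAAGT, 2.44%) motifs. A match is a description of the letters, and Ackr2, with 2 of them, was not called. Whether the motifs have a part in the responses was not tested.

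Genes whose pattern over the 12 libraries was closest to each receptor were ranked among 14593 tested genes with a mean of at least 1 CPM, by the root mean square difference of log2 CPM centred on each gene's mean. For Ccr1 these were Cd33 (0.206), Slfn1 (0.216) and Lilrb4a (0.217), against a median of 1.403 over all genes. Il1rn (0.442), Slc7a11 (0.447) and Tnip3 (0.486) were nearest to Ackr1, with a median of 2.312. For Cxcr4 they were Arl15 (0.107), Alg6 (0.115) and 2700097O09Rik (0.116), and for Ccr2 they were Pgap1 (0.160), Plscr4 (0.180) and Kbtbd3 (0.189), with medians of 0.451 and 0.560. Ccrl2 was nearest to Pign (0.097), Lrrc8b (0.109) and Nfe2l2 (0.119), and Cxcr6 to Slc18a2 (0.120), Mpp7 (0.144) and Rap2b (0.146). Mog (0.199), Rnf122 (0.206) and Lef1 (0.213) were nearest to Ccr7, and Naxd (0.066), Clec16a (0.068) and Chka (0.070) to Ackr2. Between the receptors themselves, Ccr2 and Cxcr4 had the closest patterns (0.260) and Ccr2 and Ackr1 the most distant (2.416).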

How the data were processed

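Whole lung RNA of 12 mice, 3 per group, was analysed. Per the labels and the study's methods, a directional kit followed removal of ribosomal RNA, and the authors used Trim Galore, HISAT2 on mm10 and, for counting on Gencode gene models, featureCounts. They deposited raw read counts of 52550 genes, not normalized. The Gencode release and the strand option are not given in the sources used here, so the treatment of reads in overlapping genes is not known. Total counts of 22382535 to 38062873 per library set the precision. No pair of libraries of a group agreed within sampling noise.

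From the counts, 15885 of 21950 protein-coding genes (72.4%) passed filterByExpr and were tested with edgeR 4.0.16 (R 4.3.3, TMM, glmQLFit and glmQLFTest, 1 coefficient per group, 8 residual degrees of freedom), with Benjamini-Hochberg adjustment over all of them. The script was checked on simulated counts. CPM used TMM library sizes, and likeness a prior count of 2. Alternatives covered RLE size factors, DESeq2 1.42.0, limma 3.58.1 (voom and treat), filters, the genes and libraries fitted, and each library left out. Positions came from Gencode M21 and promoters from RefSeq.

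The members, the lists and the alternatives were chosen with earlier results of these data known. After testing, 1 gene was left out of the lists for a reason other than its values and is not reported here. Named were all members, other receptors and ligands called in an LPS contrast or paired with a member, the 4 called signalling genes with the smallest p, the 3 genes nearest each member, and the 2 most abundant markers of a list per length.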

Additional observations from a re-analysis of the deposited data

How the results depend on the processing

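Of the fold changes of the 8 receptors under the alternatives, 940 kept their side of the threshold and did not turn to the opposite sign, 17 lost the call, 15 gained it and 19 changed sign. A value of 0.00 was taken to have no sign, which held for the Ccr2 response in WT and for Ackr2 between genotypes in LPS. With treat against 0.5 in limma-voom, where calls over all genes in WT fell from 2791 to 542, called members fell to 1, other receptors to 1 and ligands to 6, and other receptors over both genotypes to 3. Without WT PBS replicate 5 and Adm+/- PBS replicate 6, called members numbered 5 in Adm+/- mice, 1 between genotypes in LPS and 5 over both genotypes (3 with all libraries), where 3921, 548 and 3946 of 16100 genes were called against 3968, 325 and 4455 of 15885 with all libraries. The same fit called 1 of the other receptors and 2 ligands between genotypes in LPS, and the differences in PBS turned to -0.05 for Ccr2 and -0.12 for Ccrl2. Fits of only the libraries compared, with 1152 genes called in WT, called 2 members (Cxcr6 was lost) and 1 other receptor in WT and 0 ligands between genotypes in LPS, where treat also called 0 ligands, limma-voom 3 and DESeq2 3 ligands and 2 other receptors. Between genotypes in LPS, DESeq2 called 803 of all genes, limma-voom 285 and edgeR 325. DESeq2 called 5 other receptors in WT, where it called 3321 of all genes against 2791 with edgeR. It called 1 ligand in the difference between the responses, where it called 168 of all genes against 23. The cause of these moves was not tested.

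Leaving out 1 library at a time, called members ranged from 2 to 3 in WT, 2 to 3 in Adm+/- mice, 3 to 4 over both genotypes and 0 to 0 in the other contrasts, while calls over all genes ranged from 1443 (without WT LPS replicate 9) to 3074, 3033 to 4503 and 3852 to 4743 in the first 3 of these. Other receptors ranged from 2 to 4, 3 to 4 and 5 to 8 (8 without WT PBS replicate 3), and from 0 to 1 (without WT PBS replicate 5 or WT LPS replicate 10) between genotypes in LPS. Ligands ranged from 10 to 14, 14 to 16 and 15 to 16, and from 0 (without WT LPS replicate 11, Adm+/- PBS replicate 7 or any Adm+/- LPS library) to 3 (without WT PBS replicate 5 or WT LPS replicate 9) between genotypes in LPS, where calls over all genes ranged from 81 to 573. Signs changed for uncalled values: between genotypes in PBS, Ccr1 ranged from -0.91 to 0.05, Ccr2 from -0.27 to 0.29, Ccr7 from -0.08 to 0.16, Cxcr4 from -0.01 to 0.54, Cxcr6 from -0.01 to 0.30 and Ccrl2 from -0.20 to 0.26. In LPS, Cxcr4 ranged from -0.09 to 0.14 and Cxcr6 from -0.24 to 0.04. Those that were 0.00 with all libraries ranged from -0.32 to 0.24 for the Ccr2 response in WT and from -0.05 to 0.04 for Ackr2 between genotypes in LPS. The Cxcr4 response ranged from -0.48 to 0.07 in WT, and its difference between genotypes from -0.53 to 0.02.

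No paired analysis was possible because the 12 replicate numbers are library numbers that no groups share. The difference and the contrast over both genotypes need all 4 groups, so no fit of only the libraries compared was run for them.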

Other observations

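Lymphatic endothelial markers, the cells known for Ackr2, had 4 of 8 called higher and 1 lower in WT and 3 higher and 1 lower in Adm+/- mice after LPS, while Ackr2 was called in neither. They were led per length by Lyve1, at 90.1 to 138 CPM in WT PBS, 242 to 349 in WT LPS, 102 to 139 in Adm+/- PBS and 339 to 419 in Adm+/- LPS, and by Pdpn, which type I pneumocytes also express. Of the 8 B cell markers, led by Cd79b and Cd79a, 0 were called in WT (smallest adjusted p = 0.0699, 1 with an unadjusted p below 0.05 in edgeR's test) and 1 was called higher in Adm+/- mice. Of the 5 thymocyte markers tested, led by Tcf7 and Cd1d1, 1 was called higher and 1 lower in WT and 2 lower in Adm+/- mice. Beside these marker counts, 17.6% of all genes were called in WT and 25% in Adm+/- mice.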
